A study of Homo sapiens with 18 samples.

Results

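Transcripts of 42 genes that carry out mitosis were followed in HCT116 cells, a human colorectal carcinoma line of epithelial origin, as the cultures went from 50% confluency on day 3 after seeding to 250% confluency on day 5. The genes were chosen by symbol, as cyclins, mitotic kinases, spindle checkpoint, kinetochore, motor and cytokinesis genes, and make up 42 of the 38055 genes in the whole transcriptome table. All 42 passed the filter on low values. The study asks how cells respond to crowding, and it sampled wild-type HCT116 cells in two-dimensional culture with 3 biological replicate libraries on each day. No treatment is labelled for either group, and they share the cell line and the plating; day 3 at low density serves as the reference. Day and density rose together, so time in culture and crowding cannot be told apart, and a single cell line was used. Values of day 7 were not analysed here.

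Cells enter mitosis when cyclins A2 and B1 activate the kinase CDK1, a step that CDC25 phosphatases switch on and polo-like and Aurora kinases amplify. Chromosomes then attach to spindle microtubules at kinetochores, while the spindle assembly checkpoint holds back the anaphase-promoting complex until every kinetochore is attached. Most of these genes are transcribed in the G2 phase and in mitosis, through B-MYB with the MuvB core and FOXM1, and are repressed in resting cells by the DREAM complex, which binds a promoter element called the CHR. In these bulk samples fewer dividing cells and less transcript per cell cannot be told apart.

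Of the 42 genes, 28 fell and 5 rose between day 3 and day 5, and 9 did not pass the threshold (limma on log2(value + 1), Benjamini-Hochberg adjusted p under 0.05 over all 20129 genes tested). Over all genes tested, 27.6% were lower and 29.3% were higher on day 5 by the same rule. The 3 day 5 libraries all lay below the 3 day 3 libraries for 29 of the genes and all lay above them for 6, beside 31.7% and 33.4% of all genes. The median log2 fold change was -0.53, with quartiles of -0.80 and -0.08, and the median over all genes was 0.01. Changes of at least 2-fold were fewer: 6 genes fell and 1 rose that much, where 7.6% and 10.2% of all genes did. Together the 42 genes took 0.758 to 0.787% of the reads on day 3 and 0.619 to 0.638% on day 5.

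The genes that rose were CDC25B, INCENP, PLK1, MKI67 and ESPL1. The largest falls were those of MAD2L1, PTTG1, PLK4, CCNB1 and TTK. The rises changed with a correction for base composition: after each library was corrected for transcript GC content and length, CDC25B and INCENP stayed higher, PLK1 no longer passed, MKI67 lay slightly below 0 without passing, and ESPL1 was called lower. With that correction 25 of the 42 were lower and 3 were higher, beside 24.0% and 23.6% of all genes, and the median was -0.30. Of the 28 lower genes, 20 stayed lower and past the threshold under every alternative other than a 2-fold minimum, and of the 5 higher genes CDC25B alone did.

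**Figure D1:**
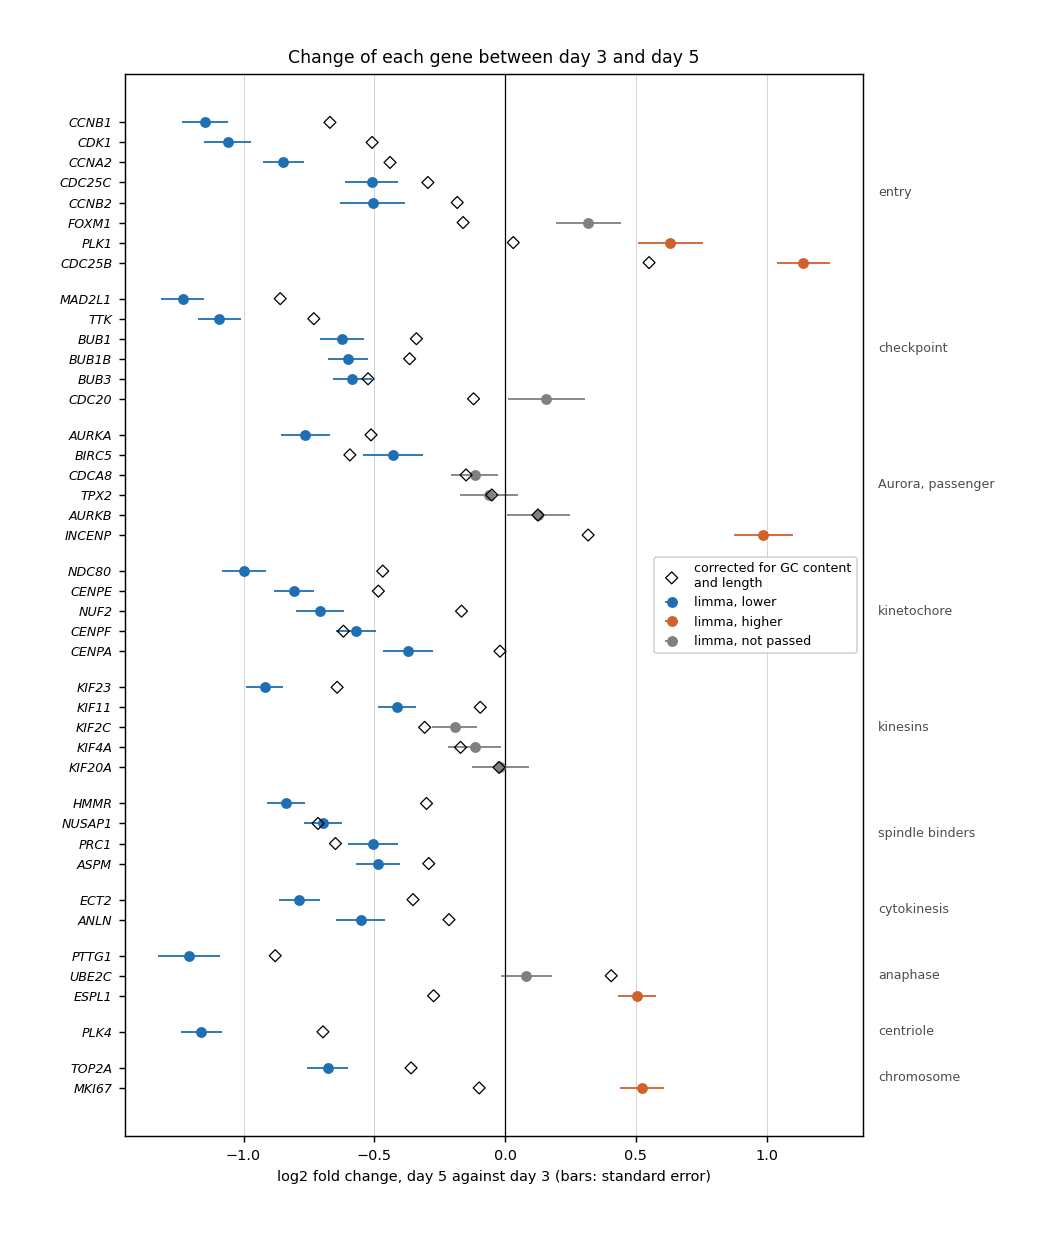
Log2 fold change of the 42 genes, day 5 against day 3, grouped by role; filled points are limma estimates from 3 libraries per day with standard errors as bars, blue for lower, orange for higher and grey for not passed, and open diamonds are the estimates after correction for GC content and length. The estimates run from -1.23 for MAD2L1 to 1.14 for CDC25B. The diamonds of CDC25B, INCENP, PLK1, MKI67, ESPL1 and FOXM1 lie far to the left of their points.

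The 6 libraries differed in depth and in makeup. Reads recovered per library ranged from 27470978 to 56689369, with both extremes on day 3. Reads of the mitochondrial genome took 6.77 to 7.24% of a library on day 3 and 5.46 to 6.13% on day 5, those of histone genes 0.858 to 1.10% and 0.421 to 0.442%. Epithelial markers were abundant on both days, with a summed value of 38254 to 56787 on day 3 and 106154 to 106718 on day 5; 7 of the 8 tested (CDH1, KRT8, KRT18, KRT19, CDX2, CLDN3 and CLDN4) were higher on day 5 and EPCAM did not pass. The epithelial marker VIL1, a villus actin bundler, was near absent and stayed at or under 5.18 in every library. Markers of other cell types were weak apart from the fibroblast marker COL1A1, and none was at 0 in all 6 libraries. Immune markers summed to 14.2 to 21.3 on day 3 and 18.2 to 22.8 on day 5. Endothelial ones summed to 15.6 to 27.2 and 39.3 to 68.3, and fibroblast ones to 526 to 605 and 1124 to 1200. Most of the fibroblast sum was COL1A1, which lay above the epithelial markers CDX2 and CLDN3 in every library. Of the 6 such markers tested, LYZ, COL1A1, VWF and KDR were higher on day 5. The part of these shifts in the results was not tested. The shallowest library, day 3 replicate 3, held the highest day 3 normalized value for 37 of the 42 genes (88.1%), against 49.7% of all genes. Its values summed to 38942641, against 34008467 and 35043456 in day 3 replicates 1 and 2. As a share of reads, the 42 genes took least in that library, 0.758% against 0.783 and 0.787%.

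Promoter sequence is shown first, because genes that fell and genes that rose carried the same element. A RefSeq window of 300 bases around the transcription start (250 before and 50 after, GRCh38.p14) was at hand for 35 of the 42 genes and for 15108 genes in all. The CHR was searched as TTTGAA or TTCGAA on both strands. It was found in 28 of the 35 windows (80%), against 12.9% of all promoters. The share was 20 of 24 for lower genes (83.3%), 5 of 5 for higher genes and 3 of 6 for those that did not pass. A CCAAT box (CCAAT on either strand, whose end can share a single base with the CHR) was in 28 of the 35 windows, against 36.6% of all promoters, and both elements stood together in 23 (65.7%), against 5.46%. The centre of the CHR lay at a median position of -19.5 relative to the start, and within 50 bases of it in 24 of the 28. Where a window held several matches, the one nearest the start was used, which favours positions near it. Positions in the other promoters were not compared. In the 30-base windows below, read 5′ to 3′ along the gene, capitals mark every CHR match; the first 5 genes rose and the other 6 fell.
CDC25B (chr20:3796260-3796289): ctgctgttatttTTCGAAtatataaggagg
INCENP (chr11:62123989-62124018): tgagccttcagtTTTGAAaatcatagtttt
PLK1 (chr16:23678848-23678877): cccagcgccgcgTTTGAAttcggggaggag
MKI67 (chr10:128126435-128126464): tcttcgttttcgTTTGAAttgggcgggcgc
ESPL1 (chr12:53268256-53268285): cagccgcggataTTTGAAaggagggtctgg
MAD2L1 (chr4:120066807-120066836): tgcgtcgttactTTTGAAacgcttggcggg
PLK4 (chr4:127880913-127880942): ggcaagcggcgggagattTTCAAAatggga
CDK1 (chr10:60778453-60778482): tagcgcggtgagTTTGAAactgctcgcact
NDC80 (chr18:2571542-2571571): ccggcggagaatTTCAAATTCGAAcggctt
BUB1 (chr2:110678045-110678074): ctgcgcggggtaTTCGAAtcggcggcggct
CCNB2 (chr15:59105105-59105134): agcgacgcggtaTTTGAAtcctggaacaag
PLK4 carries the element on the opposite strand, so it reads TTCAAA here, and NDC80 has that form followed directly by TTCGAA. The TTCGAA form is also that of CDC25B, which rose, and of BUB1, which fell. In MKI67, PLK1 and CCNB2, which moved in different directions, the CHR nearest the start is centred at the same position, -26 from the start. No match was found in the windows of the lower genes CCNB1, PTTG1, CCNA2 and CENPE, or of AURKB, KIF20A and KIF2C, which did not pass. This says only that these letters are not there. The AURKB window starts 326 bases from its reference start.

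Among the genes of mitotic entry the cyclins and CDK1 fell, while the activating phosphatase CDC25B and the kinase PLK1 were higher. Of the 8 genes, 5 fell (CCNA2, CCNB1, CCNB2, CDK1 and CDC25C), 2 rose and FOXM1 did not pass. That is 62.5% lower and 25% higher, beside 27.6% and 29.3% of all genes. CCNB1 (cyclin B1, chr5:69167135-69178245) had normalized values (reads divided by a factor for each library) of 12422, 12405 and 14311 in the 3 day 3 libraries and 5888, 5738 and 5995 in the 3 day 5 libraries. Every day 5 value lay more than 2-fold below the lowest day 3 value, and the log2 fold change was -1.15 (SE 0.088, limma adjusted p = 0.000274). CDK1, its kinase partner, had 8838, 8556 and 8959 on day 3 and 3939, 4091 and 4638 on day 5, a log2 fold change of -1.06 (SE 0.09, limma adjusted p = 0.000337). CCNA2, the cyclin that acts from S phase into early mitosis, went from 5995, 6151 and 6646 to 3509, 3388 and 3532 (-0.85, SE 0.078, limma adjusted p = 0.00041). These 3 genes were well apart between the days and kept their calls after correction for GC content and length, at -0.67, -0.51 and -0.44. CCNB2, the second B-type cyclin, moved less, from 2786, 2992 and 3714 to 2189.6, 2163 and 2281 (-0.51, SE 0.12, limma adjusted p = 0.0144). Its libraries did not overlap, but the corrected change of -0.18 did not pass (adjusted p = 0.252), and neither did the change when no filter on low values was used.

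CDC25B, which removes the inhibitory phosphates of CDK1 at the start of mitosis, showed the largest rise of the 42 genes. Its values (chr20:3786772-3806121) were 3379, 3862 and 4169 on day 3 and 8628, 8264 and 8183 on day 5. All day 5 libraries lay far above all day 3 libraries, and the log2 fold change was 1.14 (SE 0.10, limma adjusted p = 0.000367), or 0.55 after correction (adjusted p = 0.00294). CDC25C, a phosphatase of the same family, fell from a mean of 1206 ± 133.2 to 843.0 ± 32.4 (SD, n = 3 per day), a log2 change of -0.51. PLK1, the polo-like kinase of mitotic entry and spindle assembly (chr16:23677656-23690367), had 2593, 3051 and 3462 on day 3 and 4963, 4459 and 4604 on day 5. The days did not overlap and the log2 fold change was 0.63 (SE 0.12, limma adjusted p = 0.00637), but it was 0.031 after correction for GC content and length (adjusted p = 0.817). FOXM1, the transcription factor of this gene group, had 2165, 2669.9 and 2900.4 on day 3 and 3264, 3039 and 3279 on day 5. It lay just outside the threshold, with non-overlapping libraries and a log2 fold change of 0.32 (SE 0.13, limma adjusted p = 0.0733), and it was at -0.16 after correction. On the recovered reads edgeR and DESeq2 called FOXM1 higher, as they did 31.0% and 22.9% of the genes they tested.

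In the spindle assembly checkpoint, 5 of 6 genes fell (83.3%, beside 27.6% of all genes), and CDC20, the target the checkpoint holds, did not pass. MAD2L1, which encodes the MAD2 protein that binds CDC20 at unattached kinetochores (chr4:120055623-120066858), showed the largest fall of all 42 genes, from 8392, 7979.9 and 8412 on day 3 to 3484, 3311 and 3763 on day 5. The log2 fold change was -1.23 (SE 0.082, limma adjusted p = 0.000222) and stayed at -0.86 after correction. TTK, the MPS1 kinase that starts checkpoint signalling (chr6:80003887-80042527), had 6000.1, 5728 and 6070.1 and then 2731, 2638 and 2982, with a log2 fold change of -1.09 (SE 0.082, limma adjusted p = 0.000258). For both genes the days were far apart and the change was over 2-fold. BUB1B, which encodes the BUBR1 component of the mitotic checkpoint complex, fell less, from 5749, 6009 and 6158 to 4104, 3764 and 3938 (-0.60, SE 0.077, limma adjusted p = 0.00114). BUB1 and BUB3, a checkpoint kinase and its WD40 partner, fell by 0.62 and 0.58 on the log2 scale. CDC20, the activator of the anaphase-promoting complex, had 4591, 5227 and 6623 on day 3 and 6366, 5819.9 and 5958 on day 5. Its days overlapped through day 3 replicate 3 alone, and the log2 fold change of 0.16 (SE 0.15) had a limma adjusted p of 0.392; without that library it was 0.30 and passed (adjusted p = 0.0443), and after correction it was -0.12.

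**Figure D2:**
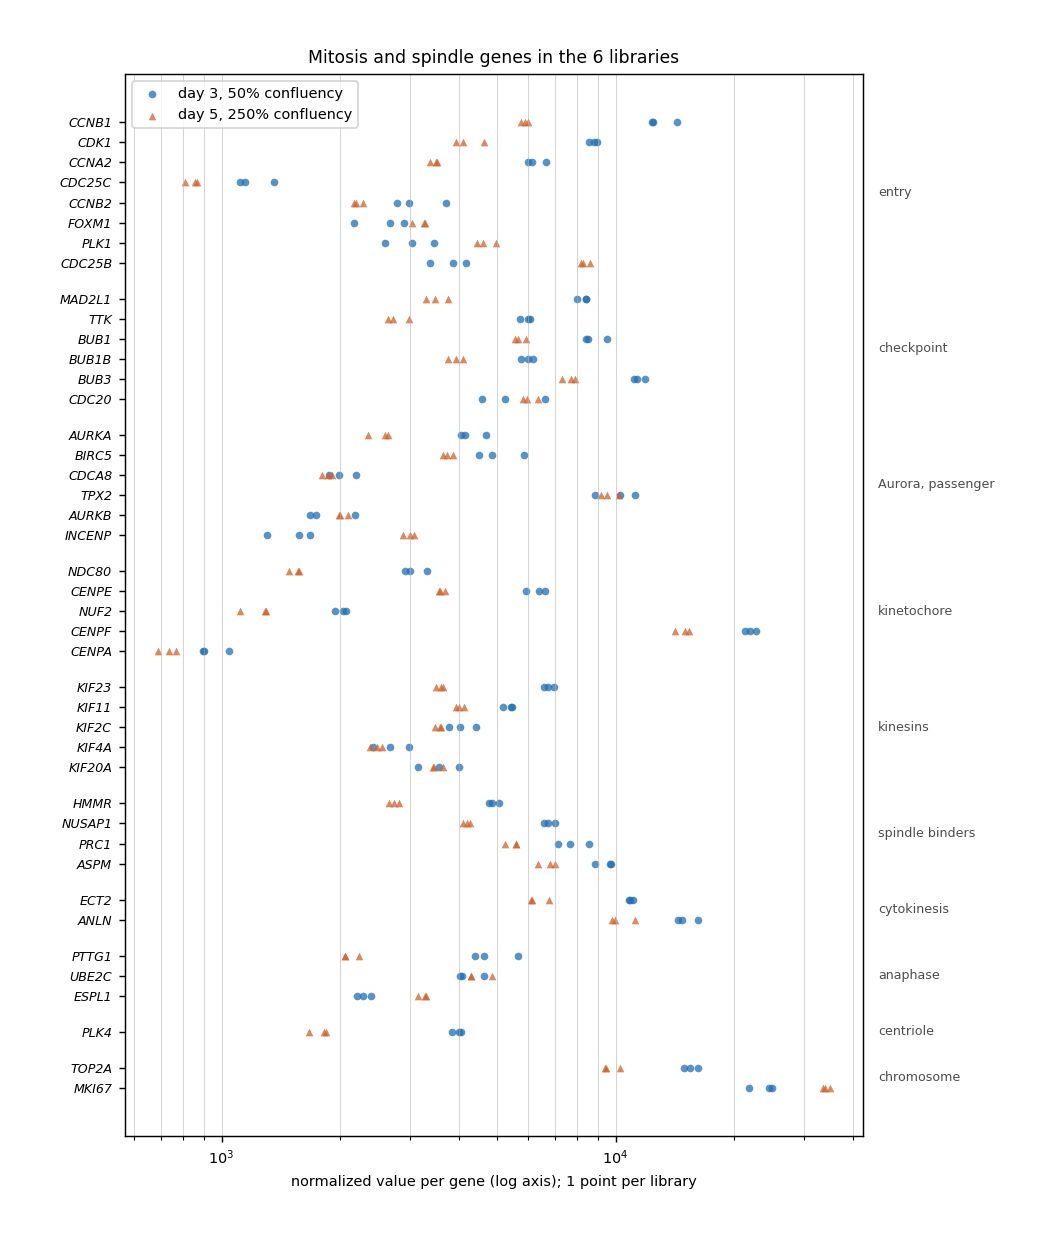
Normalized values of the 42 genes in each library on a log axis, grouped by role, with blue circles for the 3 day 3 libraries and orange triangles for the 3 day 5 libraries. Circles and triangles are apart for 35 genes, with the triangles to the right for 6 of them, and they overlap for CDC20, CDCA8, TPX2, AURKB, KIF4A, KIF20A and UBE2C.

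The Aurora kinases and the chromosomal passenger complex, the Aurora B complex that corrects wrong attachments and guides cytokinesis, moved in both directions. Of 6 genes, AURKA and BIRC5 fell, INCENP rose and AURKB, CDCA8 and TPX2 did not pass. That is 33.3% lower and 16.7% higher, beside 27.6% and 29.3% of all genes. AURKA, the kinase of centrosomes and spindle poles, went from 4052, 4160.3 and 4685 to 2639, 2352 and 2601, with a log2 fold change of -0.76 (SE 0.10, limma adjusted p = 0.00106). AURKB, the kinase of the passenger complex, had 1674, 1741 and 2177 on day 3 and 2093, 1982 and 1995 on day 5. The days overlapped through day 3 replicate 3 alone, and the log2 fold change of 0.13 (SE 0.12, limma adjusted p = 0.395) became 0.24 without that library and passed (adjusted p = 0.0371). INCENP, the scaffold of the complex (chr11:62123998-62153169), had 1301, 1571 and 1673 and then 3072, 2889.6 and 3004. Its day 5 libraries stood at nearly 2-fold the day 3 libraries, with a log2 fold change of 0.99 (SE 0.11, limma adjusted p = 0.000798) and of 0.32 after correction (adjusted p = 0.0344). BIRC5, the survivin subunit, was the called gene closest to the threshold, with 4503, 4871 and 5850.4 on day 3, 3737, 3643 and 3865 on day 5 and a log2 fold change of -0.43 (SE 0.11, limma adjusted p = 0.0206). The libraries of BIRC5 did not overlap, but its call was lost without day 5 replicate 1, without day 5 replicate 2 and with no filter on low values. CDCA8, the borealin subunit, had a mean of 2018 ± 163.7 on day 3 and 1858 ± 57.6 on day 5 (SD, n = 3 per day), and TPX2, which activates Aurora A on the spindle, had 10101 ± 1167 and 9642 ± 528.2.

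All 5 centromere and kinetochore genes and all 4 spindle microtubule binders fell, beside 27.6% of all genes. NDC80, whose product grips microtubules at the outer kinetochore, went from a mean of 3080.3 ± 206.5 on day 3 to 1541 ± 50.6 on day 5 (SD, n = 3 per day), a log2 fold change of -0.997 (SE 0.084). CENPE, a kinetochore motor, and NUF2, the partner of NDC80, fell by 0.81 and 0.71 on the log2 scale, and CENPF, a large outer kinetochore protein, by 0.57. CENPA, the histone H3 variant that marks centromeres, had 902.6, 898.2 and 1045 on day 3 and 737.5, 691.3 and 765.2 on day 5. Its days did not overlap and the change was -0.37 (SE 0.10, limma adjusted p = 0.0173), but it was -0.019 after correction (adjusted p = 0.873) and also lost its call without day 5 replicate 2 and with no filter. NUF2 lost its call after correction as well, at -0.17. Among the binders, PRC1, which bundles microtubules in the midzone, had 7128, 7663 and 8585 and then 5579, 5238 and 5603, a log2 fold change of -0.51 (SE 0.10, limma adjusted p = 0.00538). HMMR, NUSAP1 and ASPM, which organise spindle poles and microtubule bundles, fell by 0.84, 0.70 and 0.49 on the log2 scale, and these 4 calls held after correction.

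Of the 5 kinesins, KIF23 and KIF11 fell (40%, beside 27.6% of all genes) and KIF2C, KIF4A and KIF20A did not pass. KIF11, the motor that pushes spindle poles apart, had 5177, 5454 and 5431 on day 3 and 4008, 3927 and 4127 on day 5. The days were apart, with a log2 fold change of -0.41 (SE 0.072, limma adjusted p = 0.00376), but the corrected change of -0.095 did not pass (adjusted p = 0.292). KIF23, the motor subunit of centralspindlin in the midzone, fell from 6771 ± 197.8 to 3581 ± 77.5 (SD, n = 3 per day), a log2 change of -0.92 that stayed at -0.64 after correction. KIF20A, the MKLP2 motor that carries the passenger complex to the midzone, was at 3576 ± 432.2 and 3515 ± 111.4, with a log2 fold change of -0.018 (SE 0.11). KIF4A, a chromokinesin, gave -0.12 (SE 0.10) and KIF2C, a microtubule depolymerase of centromeres, -0.19 (SE 0.087). KIF2C had no overlap between the days and was called lower after correction (adjusted p = 0.0177) and by edgeR and DESeq2 on reads, which called 30% and 20.7% of all genes lower. Of the cytokinesis genes, ANLN, the anillin scaffold of the contractile ring, went from 14381, 14720.4 and 16210.2 to 9779, 9943 and 11187, a log2 fold change of -0.55 (SE 0.094, limma adjusted p = 0.00347) that was -0.21 after correction and did not pass there. ECT2, the exchange factor that activates RHOA at the midzone, fell by 0.79 on the log2 scale.

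The genes of anaphase onset split. PTTG1 encodes securin, which blocks the protease separase, the product of ESPL1, until anaphase. PTTG1 (chr5:160421855-160428739) fell from 4644, 4404 and 5668 on day 3 to 2052, 2052 and 2227 on day 5, a log2 fold change of -1.21 (SE 0.12, limma adjusted p = 0.000474), and stayed at -0.88 after correction. ESPL1 (chr12:53268299-53293638) had 2202, 2284 and 2393 and then 3307, 3161 and 3287, a log2 fold change of 0.50 (SE 0.074, limma adjusted p = 0.00198). The libraries of each gene were apart between the days, in opposite directions, but the ESPL1 change was -0.27 after correction (adjusted p = 0.0165), so its direction rests on whether GC content and length are corrected. UBE2C, the ubiquitin-conjugating enzyme of the anaphase-promoting complex, was at 4239.8 ± 334.1 and 4482 ± 325.9 (SD, n = 3 per day) and did not pass, and was called higher after correction (0.41, adjusted p = 0.0149).

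PLK4, the kinase that starts centriole duplication (chr4:127880893-127899224), had 4058, 3838 and 4009 on day 3 and 1843, 1663 and 1820.4 on day 5. It fell by more than 2-fold in every pairing of a day 3 with a day 5 library, with a log2 fold change of -1.16 (SE 0.079, limma adjusted p = 0.000225) and of -0.70 after correction. A pair of common proliferation markers went opposite ways. TOP2A, the topoisomerase that untangles sister DNA, fell from 14939.7, 15463 and 16207 to 9474, 9426 and 10239.9, a log2 fold change of -0.68 (SE 0.079, limma adjusted p = 0.000839) that stayed past the threshold after correction, at -0.36. MKI67, which encodes the Ki-67 antigen that coats mitotic chromosomes (chr10:128096659-128126423), had 21837, 24574 and 24996 on day 3 and 34014, 33575 and 34937 on day 5. All of its day 5 libraries lay above all day 3 libraries, with a log2 fold change of 0.52 (SE 0.085, limma adjusted p = 0.00282). After correction for GC content and length it was -0.10 (adjusted p = 0.303); its transcript of 12716 bases is the longest of the 42, with a GC content of 48.3%.

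The order of the genes by level was read only per length, as RPKM over the reference transcript and the recovered reads of each library. On day 3 the highest RPKM of the 42 was that of PTTG1, at 190.1 ± 13.9 (SD, n = 3), followed by CCNB1 at 178.5 ± 3.57, and the spreads of these 2 overlapped. UBE2C was next, at 151.5 ± 1.62, below both. ESPL1 was the lowest, at 9.64 ± 0.308, with INCENP next at 10.2 ± 0.822, and these 2 were within their spreads of each other. On day 5 UBE2C stood first, at 168.0 ± 9.85, and CDC20 second, at 106.9 ± 5.59, while PTTG1 and CCNB1 were close together at 86.0 ± 2.93 and 84.4 ± 1.11. CDC25B moved from rank 29 to rank 7, PLK1 from 28 to 10 and MKI67 from 19 to 6. MAD2L1 dropped from rank 23 to rank 34 and PLK4 from 32 to 40.

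Because partners in one complex or family moved apart, 9 ratios between genes were formed within each library, which removes any scaling between libraries. The ratios are not scaled for length, so only their change between the days is read, not which partner is higher. The pairs were picked after the values had been seen, and with 3 libraries against 3 the smallest p of a two-sided exact permutation test is 0.1 (0.1125 when adjusted over the 9 pairs), so the design cannot reach 0.05. The ratio of PLK1 to PLK4 went from 0.766 ± 0.115 to 2.63 ± 0.0914 (SD, n = 3 per day). That of separase to securin (ESPL1 to PTTG1) went from 0.472 ± 0.0482 to 1.54 ± 0.0680, and that of CDC25B to CDC25C from 3.16 ± 0.275 to 9.93 ± 0.672. In all 3 the days were far apart, at the smallest exact p of 0.1. After correction for GC content and length the log2 differences of these ratios shrank from 1.79 to 0.73, from 1.71 to 0.61 and from 1.65 to 0.85. INCENP to BIRC5 rose from 0.299 ± 0.0203 to 0.797 ± 0.0228 and TPX2 to AURKA from 2.35 ± 0.145 to 3.81 ± 0.174. AURKA to AURKB fell from 2.32 ± 0.147 to 1.25 ± 0.0592, CCNB1 to CCNB2 from 4.15 ± 0.303 to 2.66 ± 0.0305 and NDC80 to NUF2 from 1.53 ± 0.0651 to 1.25 ± 0.130. These 5 pairs also had no overlap between the days (exact permutation p = 0.1 each). BUB1 to BUB1B was 1.47 ± 0.0707 on day 3 and 1.45 ± 0.0853 on day 5, and the days overlapped (exact permutation p = 0.7).

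**Figure D3:**
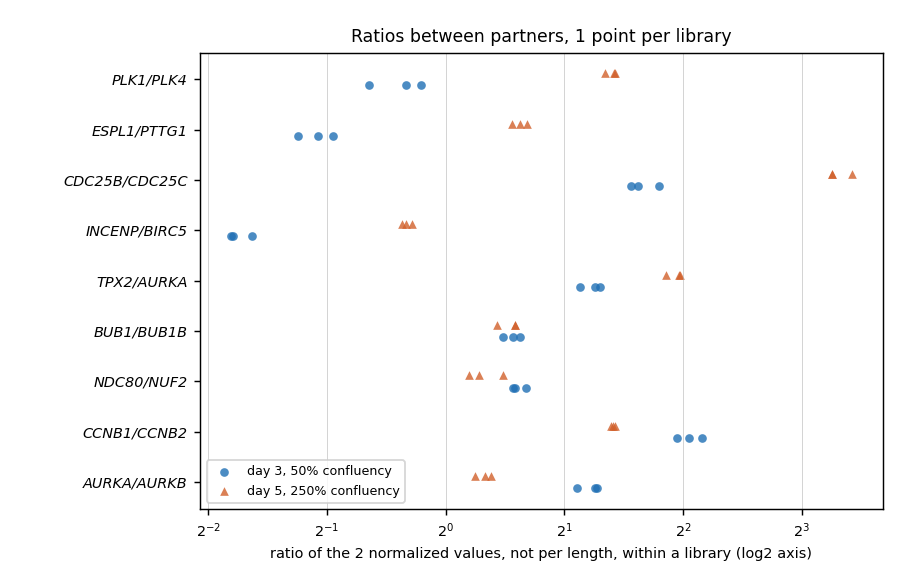
Ratio of the normalized values of 2 partner genes within each library, not scaled for length, on a log2 axis, for 9 pairs; blue circles are the 3 day 3 libraries and orange triangles the 3 day 5 libraries. Circles and triangles are apart in every pair other than BUB1/BUB1B, and furthest apart in PLK1/PLK4, where the mean ratio goes from 0.766 to 2.63.

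Transcript GC content differed between the genes that fell and those that rose, with some overlap. The 28 lower genes had a median GC content of 40.9% (range 35.1 to 51.2%), the 5 higher genes 57.1% (48.3 to 59.1%) and the 9 that did not pass 51.1% (46.2 to 56.9%). Across the 42 genes, log2 fold change followed GC content with Pearson's r = 0.85 and Spearman's rho = 0.81, given as a description since all points share the same 6 libraries. For the 42 genes this GC content is that of the reference transcript. Over 19288 genes, with the GC content of the longest annotated transcript, r was 0.41 and rho 0.43. The longest transcript was also used for the bins below and for the correction. When all genes were split into 5 equal bins of GC content, their median log2 fold change was -0.35, -0.25, -0.01, 0.21 and 0.57 from the lowest to the highest bin. The 42 genes had medians of -0.80, -0.62, -0.28, 0.13 and 0.81 in the same bins, which held 12, 9, 12, 5 and 4 of them. In the 4 bins of lower GC content the medians of the 42 lay below those of all genes, and in the highest bin the median of its 4 genes lay above. After correction r among the 42 was 0.62 and over all genes -0.0196. With transcript length the change had Spearman's rho = 0.064 among the 42 genes (reference transcript) and 0.28 over all genes (longest transcript). The cause of this relation was not tested.

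**Figure D4:**
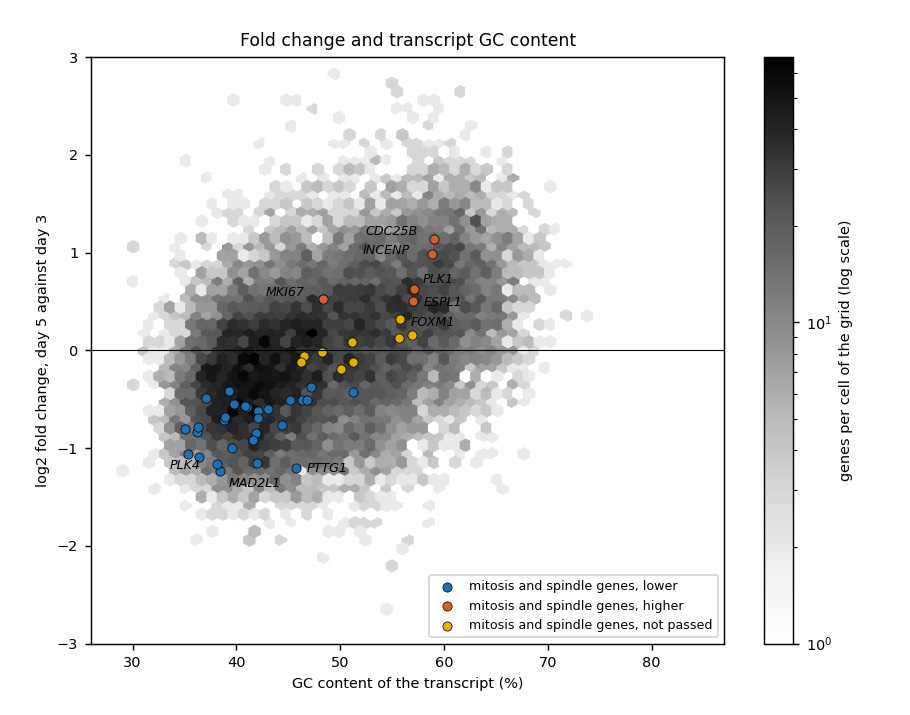
Log2 fold change, day 5 against day 3, against the GC content of the transcript in percent. Grey cells count 19288 genes by their longest annotated transcript (log scale). Points are the 42 mitosis and spindle genes by their reference transcript, blue for lower, orange for higher and yellow for not passed. The cloud of all genes rises with GC content (r = 0.41), and so do the 42 points (r = 0.85), whose GC content is defined on another transcript. Genes beyond 3 in either direction are not drawn.

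Other genes of the same processes were counted in 9 further lists, of which 162 genes were tested. Of these 93 were lower and 25 higher, with a median log2 fold change of -0.39, beside 27.6% and 29.3% of all genes and their median of 0.01. The other centromere and kinetochore genes moved most uniformly: 28 of 31 were lower, and PMF1, SPC24 and CENPT did not pass. The largest fall there was that of CENPW, a histone-fold subunit of the inner kinetochore, from 1359.8 ± 199.9 to 461.3 ± 20.5 (SD, n = 3 per day; log2 fold change -1.55, SE 0.12). Of the 10 centriole and centrosome genes 8 were lower, with SASS6, the cartwheel protein of new centrioles, at -0.997, and PCNT, the pericentrin scaffold, was higher at 0.58. After correction PCNT was at -0.33, the opposite direction.

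Of 15 genes of the anaphase-promoting complex with its activator FZR1, 11 were lower and FZR1 and ANAPC2 were higher. These are 73.3% and 13.3%, beside 27.6% and 29.3% of all genes. ANAPC13, a small subunit, changed by -1.43 (SE 0.082) and FZR1, the CDH1 activator of late mitosis, by 0.88 (SE 0.11), or -0.061 after correction. Among 8 condensin genes 3 were lower (NCAPG, SMC2 and SMC4) and NCAPD2 was higher. These shares of 37.5% and 12.5% stand beside 27.6% and 29.3% of all genes. NCAPG and NCAPD2, which encode subunits of the same condensin I complex, had log2 fold changes of -0.89 and 1.16, and of -0.49 and 0.74 after correction. Of 15 genes of cohesin and its regulators 7 were lower and SMC1A, MAU2 and NIPBL were higher. That is 46.7% and 20%, beside 27.6% and 29.3% of all genes. After correction 4 of that list were lower and 2 higher, with a median log2 fold change of -0.07. ESCO2, the acetyltransferase that locks cohesion in S phase, changed by -1.31, and SMC1A, a ring subunit, by 0.72, or 0.23 after correction, which did not pass (adjusted p = 0.112).

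Other spindle motors and assembly factors were mixed, with 13 of 28 lower (46.4%) and 6 higher (21.4%), beside 27.6% and 29.3% of all genes. HAUS1, an augmin subunit that helps nucleate microtubules within the spindle, had the largest fall of any list, from 2370.0 ± 252.1 to 774.8 ± 55 (SD, n = 3 per day; log2 fold change -1.61, SE 0.11). NUMA1, which anchors microtubules at the poles, rose by 1.31 on the log2 scale, or by 0.41 after correction. Of 19 other entry and exit regulators 10 were lower, led by CKS2, a small CDK1-binding protein, at -1.46. CCNF, GTSE1, MAD1L1 and CDC14B were higher. The shares were 52.6% lower and 21.1% higher, beside 27.6% and 29.3% of all genes. CCNF, cyclin F, was at 0.61, or -0.003 after correction. Among the other cytokinesis genes 5 of 15 were lower (CEP55, SEPTIN7, SEPTIN2, RACGAP1 and ARHGEF39) and 7 higher. These shares of 33.3% and 46.7% stand beside 27.6% and 29.3% of all genes. CEP55, the midbody scaffold, changed by -0.96, and MYH9, the heavy chain of nonmuscle myosin II, by 2.02 (SE 0.16), from 6165 ± 1202 to 24616 ± 48.9, or 1.13 after correction. MYH9 also works in cell adhesion and shape, outside cell division. Of 21 genes of the DREAM, B-MYB and E2F complexes 8 were lower (38.1%, beside 27.6% of all genes), led by LIN52, a MuvB subunit, at -1.23. RBL2, the p130 pocket protein of DREAM, was the only gene of that list called higher before correction. It rose from 1687 ± 27.0 to 2787 ± 116.3 (log2 fold change 0.72, SE 0.073, limma adjusted p = 0.000538) and stayed at 0.72 after correction. With the correction 12 genes of that list were lower and 3 higher, beside 24.0% and 23.6% of all genes.

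DNA replication genes, which act earlier in the cycle, were counted for comparison. Of 34 tested, 22 were lower and CDT1 and MCM2 were higher, beside 27.6% and 29.3% of all genes. Their median log2 fold change was -0.60, close to the -0.53 of the 42 mitosis genes. After correction for GC content and length the medians were further apart, at -0.51 and -0.30. No test of the difference between the lists was made. CCNE2, cyclin E2, fell from 1879 ± 117.5 to 664.7 ± 42.3 (SD, n = 3 per day; log2 fold change -1.50). CDT1, a factor that licenses replication origins, gave 0.80 (SE 0.19), or 0.077 after correction, which did not pass.

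**Figure D5:**
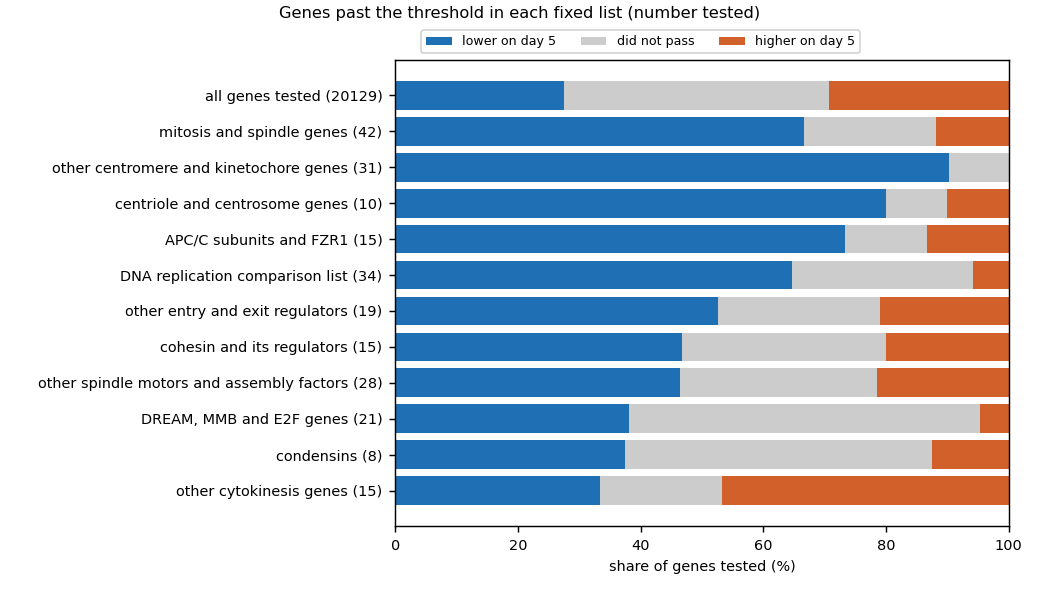
Share of the genes tested, in percent, that were lower (blue), did not pass (grey) or were higher (orange) on day 5 by limma, for all genes, the 42 mitosis and spindle genes, 9 further mitosis lists and the DNA replication list, with the number tested in brackets. Lower genes outnumber higher ones in every list other than the other cytokinesis genes (5 lower and 7 higher), while over all genes the shares are 27.6% and 29.3%.

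Some of the 42 counts could hold reads of other genes. Near-identical copies with reads of their own were small beside their parents on day 3: UBE2CP5 stood at 4.25% of UBE2C, CDC20P1 at 2.33% of CDC20, MAD2L1P1 at 1.23% of MAD2L1 and KIF4B at 1.13% of KIF4A, and the other copies in the table were below 0.5%. BUB1B, CENPA, PRC1 and NUSAP1 share exon sequence on the same strand with other annotated genes. For CENPA the neighbour SLC35F6 had a mean of 732 on day 3 and 1091 on day 5, rising where CENPA fell. OIP5-AS1, which overlaps NUSAP1, had 6439.8 and 5548.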

How the data were processed

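Whole transcriptome RNAseq of whole-cell RNA was measured in 6 libraries, 3 on day 3 and 3 on day 5. The authors made ribosomal RNA depleted, strand-specific libraries with molecular identifiers and mapped reads to Ensembl genes of hg38 in CLC Genomics Workbench; the submitters' notes name bcl2fastq, FastQC 0.11.8 and MultiQC 1.7. In the deposited table each gene has 1 normalized signal value for every library, together with the authors' own fold changes, standard errors and p-values, which were not used. The methods name TMM, while the table's columns follow another tool's layout. The deposited small RNA tables were not used here.

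The deposited signal of a library came in steps of 1 read: 100% of its values gave a whole number of reads (tolerance 0.001 read). Reads were therefore recovered, 27470978 to 56689369 per library; precision is set by the 3 libraries per day. Groups came from the sample labels, which call the libraries biological replicates without naming separate cultures, so p-values measure the spread between these samples. All columns of library values were mapped. limma 3.58.1 in R 4.3.3 was fitted to log2(value + 1), which understates changes of weakly expressed genes, for the 20129 genes that reached 10 in 3 or more of the 6 libraries, and p-values were adjusted by Benjamini-Hochberg. On the recovered reads edgeR 4.0.16 (quasi-likelihood) called 12280 genes and DESeq2 1.42.0 called 11110, against 11450 by limma. Other alternatives were library totals, median centring, no filter, a pseudocount of 0.1, limma's variance trend, the replicate number as a block, a loess correction (span 0.3) of each library for transcript GC content and length over 19288 genes, leaving out each library, and a 2-fold minimum. In simulated data with 2-fold changes planted in 194 of 19820 genes, the limma fit recovered 140 of them (72.2%) and called 9 others. A far larger share of genes, 56.9%, was called in the data themselves, so these rates need not hold there. Loci and transcripts came from GENCODE release 44 (GRCh38) by gene identifier. The reference transcript of a gene was its MANE Select transcript. The correction, the bins of GC content and the correlations over all genes used the longest transcript of each gene. Promoters came from RefSeq, with 1 window per gene, the one nearest its reference start. The AURKB window starts 326 bases away. Protein sequences were not used here. Python 3.11.15 (scipy 1.17.1, numpy 2.4.6, pandas 2.3.3) and matplotlib 3.10.9 were used for tables and figures.

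The 42 genes, the further lists and the tests were chosen with earlier results of these data known. Values of each library were set down for 20 genes standing for the roles and for the 5 largest falls and 5 largest rises with no overlap between the days; all of the 42 that did not pass were named, and in each further list the largest fall and rise past the threshold, with groups of 5 or fewer called genes named in full. TUBGCP5, UHRF1 and PECAM1 were not analysed here.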

Additional observations from a re-analysis of the deposited data

How the results depend on the processing

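Of the 42 genes, no lower gene changed sign under any alternative run, and 20 of the 28 kept their call in all but the 2-fold minimum. Correction for GC content and length lowered the number of higher genes from 5 to 3 (CDC25B, INCENP and UBE2C) and moved the median log2 fold change from -0.53 to -0.30; the calls of ANLN, CCNB2, CENPA, KIF11, NUF2 and PLK1 were lost. It turned the sign of MKI67 (-0.10), ESPL1 (-0.27), FOXM1 (-0.16), CDC20 (-0.12), FZR1 (-0.061), CCNF (-0.0030) and PCNT (-0.33), and lowered the higher genes of the 9 further lists from 25 to 14. Median centring moved the median over all genes from 0.01 to -0.16 and their calls to 35.6% lower and 23.2% higher, from 27.6% and 29.3%; with it the median of the 42 was -0.70, the further lists had 16 higher genes, and AURKB (-0.043), CDC20 (-0.012) and UBE2C (-0.090), none of them called, changed sign. Library totals turned KIF20A to 0.049 and TPX2 to 0.0048, and leaving out day 3 replicate 3 turned them to 0.068 and 0.014 (lowest values with 1 library left out: -0.11 and -0.15, without day 3 replicate 1). Without that library, the shallowest, 8 of the 42 were higher, with AURKB, CDC20 and FOXM1 added; over the 6 libraries left out in turn the count was 5 to 8, and that of higher genes in the further lists was 15 to 28, with 15 without day 5 replicate 2 and 16 without day 5 replicate 3. With no filter on low values 14 genes of the further lists were higher, and BIRC5, CCNB2 and CENPA lost their calls. A 2-fold minimum left 6 lower and 1 higher of the 42, 21 lower and 5 higher in the further lists and 3589 of all genes, since it adds a second condition. The trend, edgeR and DESeq2 added FOXM1 as higher and KIF2C as lower. The cause of these changes was not tested.

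The labels do not say whether libraries of the 2 days with the same replicate number belong together, and they were treated as unpaired. Deviations from the day means of libraries with the same number correlated at -0.011, 0.034 and 0.023 over 20129 genes. With 3 libraries per day this cannot settle whether they were paired. With the number as a replicate block, 10533 genes passed in place of 11450 and each of the 42 calls was kept. With the replicate block and the correction for GC content and length together, 2 of the 42 were higher (CDC25B and UBE2C, since INCENP did not pass), 22 were lower, the further lists had 11 higher genes, the median was -0.30, and the same 7 genes changed sign as with the correction alone.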
